A study of Homo sapiens with 3 samples.

Results

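The matrix metalloproteinases and their tissue inhibitors were followed in 3 HCC (hepatocellular carcinoma) cell lines. The set was named by gene symbol and holds 10 genes, MMP1, MMP2, MMP7, MMP9, MMP14, MMP15, MMP24, TIMP1, TIMP2 and TIMP3, out of 16149 genes listed in at least 1 library. Of these, 9 were listed in all 3 libraries, and MMP9 was listed in none. Messenger RNA was sequenced from cultured HCCLM3 cells, a human HCC line with metastatic ability in nude mice, and from 2 subclones derived from it, with 1 library per line. The labels give all 3 lines as HCCLM3 grown in DMEM medium, the parent with a low ability to metastasize, subclone 1 with a higher ability directed to the lung, and subclone 2 with metastases to both the lung and the celiac lymph node. The paper, in contrast to the label, describes its parental line as highly metastatic, so what the parent stands for in each ratio over it is not settled by these sources. The study's methods describe monoclones grown from single cells of xenograft metastases. The paper refers to its own mRNA sequencing data for its subclonal cells, without saying which lines were sequenced. If the sequenced subclones are among the monoclones, each of these 2 libraries stands for 1 clone. Which of the study's derived lines were sequenced, and whether the parent was the red fluorescent derivative of HCCLM3 used in the animals, was not given in the sources used here. The values are RPKM, read counts normalised for gene length and sequencing depth. The RPKM values implied library totals of 4488825, 4609696 and 4725150 reads in the parent, subclone 1 and subclone 2. These are the totals used for the RPKM and may not be all reads sequenced. Since there is no replicate library, no p-value was computed, and each interval below is an exact 95% interval for counting error between libraries only.

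Matrix metalloproteinases are zinc-dependent proteases that cut collagens, gelatin, laminin and other parts of the extracellular matrix, and they are made as inactive precursors. Some are secreted, while the membrane-type enzymes stay at the cell surface, where MMP14 in complex with TIMP2 activates the MMP2 precursor. The TIMPs bind the active enzymes and block them. In the liver these genes are known for matrix turnover in fibrosis and for invasion of HCC.

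Of the 10 genes, 6 had a promoter sequence in the RefSeq table (GRCh38.p14). The 250 bases before the start of MMP7, MMP14 and MMP24 are shown because MMP7 went in opposite directions in the 2 subclones, while MMP14 and MMP24 were higher in both. Capitals mark the motif letters found, read 5′ to 3′ on the strand of the gene.
MMP7 (chr11:102530748-102530997, minus strand): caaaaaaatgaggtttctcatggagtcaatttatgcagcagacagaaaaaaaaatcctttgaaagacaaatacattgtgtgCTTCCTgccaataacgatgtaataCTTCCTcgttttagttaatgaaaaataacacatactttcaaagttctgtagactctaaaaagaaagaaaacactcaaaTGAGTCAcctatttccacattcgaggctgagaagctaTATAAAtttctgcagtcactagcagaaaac
MMP14 (chr14:22836335-22836584, plus strand): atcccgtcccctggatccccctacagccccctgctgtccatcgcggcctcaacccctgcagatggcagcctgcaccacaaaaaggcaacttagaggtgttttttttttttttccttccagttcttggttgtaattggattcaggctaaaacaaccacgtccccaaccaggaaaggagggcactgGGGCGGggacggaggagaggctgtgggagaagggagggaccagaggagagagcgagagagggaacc
MMP24 (chr20:35226440-35226689, plus strand): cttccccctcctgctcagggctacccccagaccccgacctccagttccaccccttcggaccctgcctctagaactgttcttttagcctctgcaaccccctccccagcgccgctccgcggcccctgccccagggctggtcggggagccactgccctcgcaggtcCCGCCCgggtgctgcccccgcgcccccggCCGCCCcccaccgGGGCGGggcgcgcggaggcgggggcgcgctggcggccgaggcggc

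Of 4 motifs searched, none was found in all 3 of these windows. MMP7 held the AP-1 letters TGAGTCA from -67 to -61 and the TATA box letters TATAAA from -30 to -25, counted from the start. The AP-1 letters (TGANTCA, either strand) were in 7.71% of 35116 promoters and in 1 of the 6 members, and the TATA box letters (TATAAA, either strand) were in 11.5% and in the same 1 member. MMP7 also held the PEA3 letters (AGGAAG, either strand), a motif bound by ETS factors, at 2 places, as did 33.6% of all promoters and 2 of the 6 members at 1 place or more. MMP14 held 1 GC box (GGGCGG, either strand) from -66 to -61, and MMP24 held 3, the nearest from -45 to -40. GC boxes were in 45.0% of all promoters, in 61.7% of those of listed genes, and in 5 of the 6 members, MMP7 being the exception. The share of G and C over the 300-base window was 35.7% for MMP7, 55.0% for MMP14 and 80.0% for MMP24. A match describes the letters only.

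The secreted enzymes were led by MMP7, or matrilysin, a short protease made by epithelial cells, on chromosome 11 (102520508 to 102530753, minus strand, GRCh38). It stood at 288 RPKM in parent cells (interval 273 to 303, 1481 reads), 199 in subclone 1 (187 to 211, 1050 reads) and 408 in subclone 2 (391 to 425, 2211 reads). Subclone 1 was the lowest and subclone 2 the highest library, and none of the 3 intervals overlapped. The ratio of levels over the parent was 0.690 in subclone 1 (0.637 to 0.748) and 1.42 in subclone 2 (1.33 to 1.52), that is, log2 ratios of -0.53 and 0.50. Both differences were larger than counting error and smaller than 2-fold. Between the subclones, subclone 2 over subclone 1, the ratio was 2.05 (1.91 to 2.21), a log2 ratio of 1.04 that lay at percentile 98.7 of the 11370 genes averaging at least 1 RPKM over the libraries. By level, MMP7 ranked 192, 282 and 140 among these genes in the parent, subclone 1 and subclone 2. In bulk libraries such as these, fewer cells with a transcript and less of it per cell cannot be told apart.

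MMP1, the interstitial collagenase, lies in the same gene cluster as MMP7 on chromosome 11 (102789920 to 102798160, minus strand) and was much lower. The study's qRT-PCR assay of this gene gives a second sequence to place it by.
MMP1 forward primer: ggggctttgatgtaccctagc
MMP1 reverse primer: tgtcacacgcttttggggttt
As a pair in 1 transcript, the primers matched MMP1 only, in exons 5 and 6, with a product of 142 bases spanning 102795235 to 102795536. The level of MMP1 was 10.5 RPKM in the parent (8.52 to 12.8, 98 reads), 7.09 in subclone 1 (5.50 to 8.99, 68 reads) and 11.3 in subclone 2 (9.29 to 13.6, 111 reads). Subclone 1 was again the lowest library. Its ratio over the parent was 0.676 (0.488 to 0.930), whereas the ratio of subclone 2 over the parent was 1.08 with an interval that included 1 (0.813 to 1.43). Subclone 2 was 1.59 times subclone 1 (1.17 to 2.19). MMP7 stood at 27.4, 28.0 and 36.1 times the level of MMP1 in the parent, subclone 1 and subclone 2.

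The gelatinases cut denatured collagen and the type IV collagen of basement membranes. MMP2, or gelatinase A, on chromosome 16 (55389700 to 55506691, plus strand) showed the largest difference in the set. Its level was 12.7 RPKM in the parent (11.0 to 14.6, 203 reads), 3.79 in subclone 1 (2.91 to 4.86, 62 reads) and 0.775 in subclone 2 (0.413 to 1.33, 13 reads). The parent was the highest library and subclone 2 the lowest, with no overlap between any of the 3 intervals. Relative to the parent, MMP2 was 3.36-fold lower in subclone 1 (2.52 to 4.54) and 16.4-fold lower in subclone 2 (9.40 to 31.4). The log2 ratios were -1.72 and -3.88, at percentiles 0.616 and 0.202 of the 11370 genes. Subclone 2 was also 4.89-fold below subclone 1 (2.66 to 9.69). MMP9, or gelatinase B, on chromosome 20 (46008908 to 46016561, plus strand) was not listed in any library. For its longest transcript of 2336 bases, 3 reads would be 0.286, 0.279 and 0.272 RPKM in the parent, subclone 1 and subclone 2. A level below these limits can leave a gene without reads at this depth, although other genes with 1 or 2 reads were listed.

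COL3A1, a chain of the fibrillar collagen made by mesenchymal cells, was lower in the same order as MMP2. Its level was 4.42 RPKM in parent cells, 2.21 in subclone 1 and 0.463 in subclone 2, from 109, 56 and 12 reads. The fibroblast marker list as a whole did not follow this order, since its summed level was 15.7 RPKM in parent cells, 31.2 in subclone 1 and 24.3 in subclone 2, mostly from LUM. Of its 8 markers, PDGFRA and PDGFRB were not listed in any library, COL1A2 had at most 1 read, and 3, 2 and 3 markers were at 0 in the parent, subclone 1 and subclone 2. The part of other cell types in the difference of MMP2 was not tested.

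**Figure D1:**
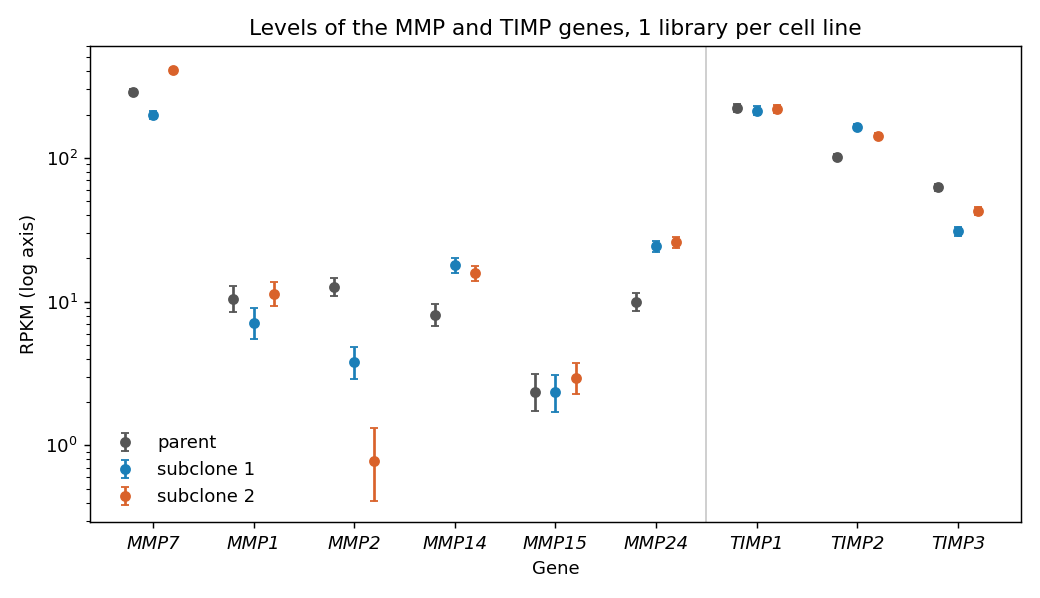
Levels of the 9 listed genes in RPKM on a log axis, with 1 point per library (parent, subclone 1, subclone 2) and bars for the exact 95% counting interval. MMP7 and the 3 TIMP genes lie highest, MMP2 drops from 12.7 RPKM in the parent to 0.775 in subclone 2, and MMP14 and MMP24 lie higher in both subclones than in the parent.

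The membrane-type enzymes MMP14 and MMP24 were higher in both subclones, and MMP15 was not. MMP14, or MT1-MMP, is a surface collagenase and the main activator of the MMP2 precursor, on chromosome 14 (22836557 to 22849027, plus strand). Its level was 8.08 RPKM in the parent (6.74 to 9.60, 129 reads), 17.9 in subclone 1 (15.9 to 20.0, 293 reads) and 15.8 in subclone 2 (14.0 to 17.8, 266 reads). Both subclones lay above the parent without overlap, and they overlapped each other. The ratio over the parent was 2.21 in subclone 1 (1.79 to 2.74) and 1.96 in subclone 2 (1.58 to 2.44), log2 ratios of 1.14 and 0.96, so the second stayed just under the 2-fold limit. The ratio of subclone 2 over subclone 1 was 0.886, with an interval that included 1 (0.747 to 1.05).

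MMP24, or MT5-MMP, a membrane-type enzyme best known from the nervous system, lies on chromosome 20 (35226654 to 35277000, plus strand). Its level was 10 RPKM in the parent (8.65 to 11.5, 195 reads), 24.4 in subclone 1 (22.3 to 26.6, 488 reads) and 25.8 in subclone 2 (23.6 to 28.1, 529 reads). The parent was the lowest library and the subclones overlapped. The ratio over the parent was 2.44 in subclone 1 (2.06 to 2.89) and 2.58 in subclone 2 (2.18 to 3.05), with log2 ratios of 1.28 and 1.36 at percentiles 96.8 and 97.0. MMP24 shares 799 of its 4414 exon bases (18.1%) with MMP24OS on the opposite strand, and the library kit did not keep the strand, so reads of the 2 genes cannot be told apart there. MMP24OS had no entry under that symbol in the libraries. Entries under older symbols were not searched, here or for the genes that follow. Other members also share exon bases with genes that had no entry under their GENCODE symbol. On the opposite strand these were WTAPP1 for MMP1 (7.61%), AC022966.1 for TIMP2 (6.52%), SLC12A5-AS1 for MMP9 (18.4%) and AL121753.2 for MMP24 (3.67%). On the same strand they were CEP295NL for TIMP2 (3.52%) and AC007336.3 for MMP2 (3.53%).

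MMP15, or MT2-MMP, on chromosome 16 (58025566 to 58046901, plus strand), also a surface protease able to process the MMP2 precursor, was the lowest of the 3 membrane-type genes. Its level was 2.35 RPKM in the parent (1.73 to 3.12, 47 reads), 2.34 in subclone 1 (1.72 to 3.10, 48 reads) and 2.94 in subclone 2 (2.26 to 3.77, 62 reads). All 3 intervals overlapped. The ratio over the parent was 0.994 in subclone 1 (0.651 to 1.52) and 1.25 in subclone 2 (0.844 to 1.87), so at this depth a difference of MMP15 was not detectable.

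The inhibitors differed from each other. TIMP2 was higher and TIMP3 lower in both subclones, and TIMP1 did not differ beyond counting error. TIMP1, a secreted inhibitor, on chromosome X (47582313 to 47586789, plus strand), had 223 RPKM in the parent (209 to 238, 931 reads), 213 in subclone 1 (200 to 228, 916 reads) and 220 in subclone 2 (206 to 234, 966 reads). The 3 intervals overlapped. Its ratio over the parent was 0.958 in subclone 1 (0.874 to 1.05) and 0.986 in subclone 2 (0.900 to 1.08), and both intervals were narrow.

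TIMP2, the inhibitor that also carries the MMP2 precursor to MMP14, lies on chromosome 17 (78852977 to 78925387, minus strand). Its level was 101 RPKM in the parent (96.4 to 106, 1668 reads), 164 in subclone 1 (158 to 171, 2782 reads) and 143 in subclone 2 (137 to 149, 2476 reads). The parent was the lowest and subclone 1 the highest library, with no overlap. The ratio over the parent was 1.62 in subclone 1 (1.53 to 1.73) and 1.41 in subclone 2 (1.32 to 1.501). Subclone 2 was 0.868 times subclone 1 (0.822 to 0.917), a log2 ratio of -0.20. That log2 ratio shrank to -0.08 with division by ACTB and to -0.09 with division by GAPDH, so the order of the subclones depends on the scaling.

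TIMP3, the inhibitor that stays bound to the matrix and also blocks ADAM proteases, lies on chromosome 22 (32801701 to 32863043, plus strand). Its level was 62.3 RPKM in the parent (59.2 to 65.5, 1537 reads), 30.8 in subclone 1 (28.7 to 33.0, 780 reads) and 42.8 in subclone 2 (40.3 to 45.4, 1111 reads). The parent was the highest and subclone 1 the lowest library, the reverse of TIMP2. Set against the parent, TIMP3 was 2.02-fold lower in subclone 1 and 1.46-fold lower in subclone 2, with ratios of 0.494 (0.453 to 0.539) and 0.687 (0.635 to 0.742). The log2 ratio in subclone 1 was -1.01, at the 2-fold limit and at percentile 1.74, and subclone 2 stood at 1.39 times subclone 1 (1.27 to 1.52).

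**Figure D2:**
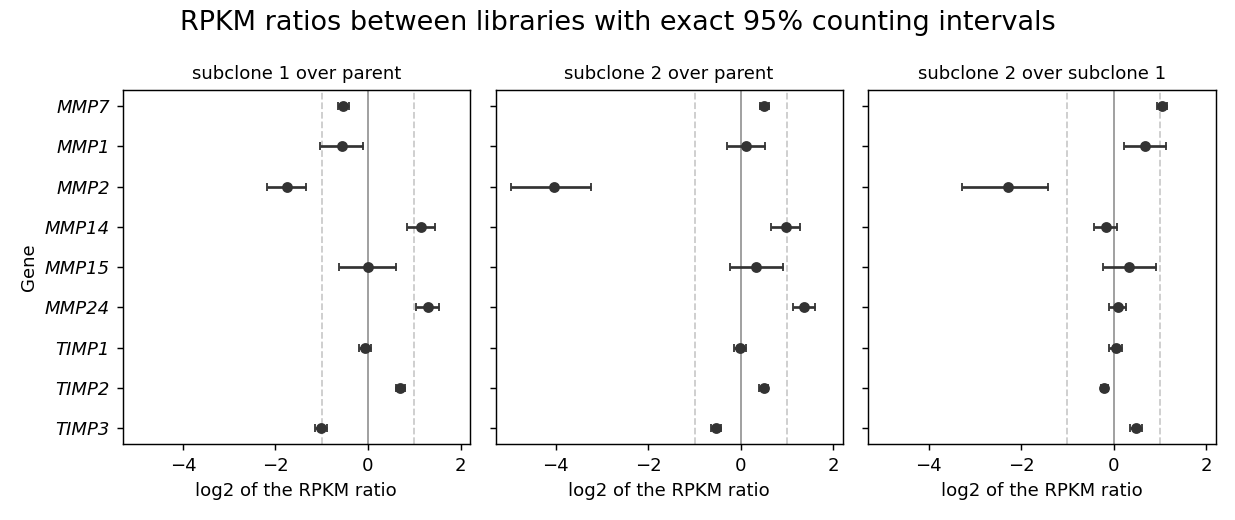
Log2 of the RPKM ratio of the 9 listed genes in the 3 comparisons, computed without a pseudocount, with exact 95% counting intervals as bars; the solid line marks equal levels and the dashed lines mark 2-fold. MMP2 lies farthest to the left in every panel, MMP14 and MMP24 lie right of the line in both comparisons with the parent, and MMP7 lies left of it in subclone 1 and right of it in subclone 2.

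The counts of members were then set beside those of all 11370 genes averaging at least 1 RPKM, on log2(RPKM + 0.1). All 9 listed members passed that filter. In subclone 1 over the parent, MMP14 and MMP24 were at least 2-fold higher, 2 of 9, against 4.90% of all genes, and MMP2 and TIMP3 were at least 2-fold lower, 2 of 9, against 1.82%. In subclone 2 over the parent, MMP24 was at least 2-fold higher, 1 of 9, against 5.33%, and MMP2 was at least 2-fold lower, 1 of 9, against 2.16%. In subclone 2 over subclone 1, MMP7 was at least 2-fold higher, 1 of 9, against 1.42%, and MMP2 was at least 2-fold lower, 1 of 9, against 1.39%.

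Intervals of the fold that lay wholly above or below 1 were more common among all genes than 2-fold differences. In subclone 1 over the parent they lay above 1 for 3 of 9 members, against 20.4% of 10903 genes, and below 1 for 4, against 19.4%. In subclone 2 over the parent they lay above 1 for 4 members, against 23.1%, and below 1 for 2, against 18.4%. In subclone 2 over subclone 1 they lay above 1 for 3 members, against 12.0%, and below 1 for 2, against 8.67%. Whether such an interval excludes 1 depends on the reads of a gene. MMP7 and the 3 TIMP genes had 780 to 2782 reads per library, and the shares over all genes were not matched for level. These counts are therefore no measure of how far the members differ from other genes. The median log2 ratio of the 9 members was -0.06, 0.31 and 0.08 in these 3 comparisons, beside 0.00, 0.04 and 0.03 for all genes. The first 2 comparisons share the parent library and are not independent of each other.

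**Figure D3:**
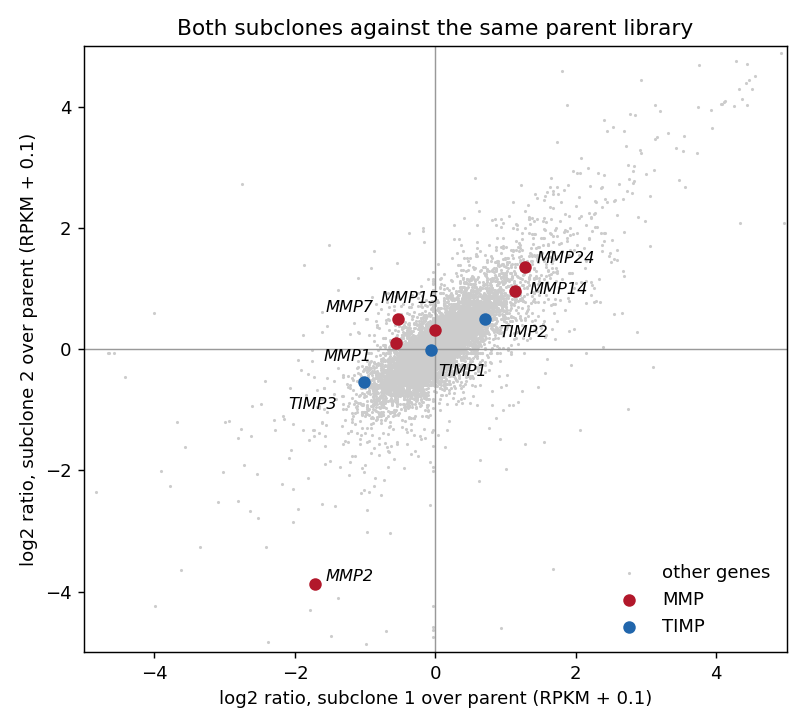
Log2 ratio over the parent in subclone 1 (horizontal axis) and in subclone 2 (vertical axis), on RPKM + 0.1, for the 9 listed members (red, MMP; blue, TIMP) and the other genes averaging at least 1 RPKM (grey); 25 of 11370 genes lie outside the axes. Since both axes hold the same parent library, the slope of the cloud is no result, and what can be read is the place of MMP2 at -1.72 and -3.88, and of MMP7 at -0.53 and 0.50.

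In each library MMP7 and the 3 TIMP genes held the first 4 places by level per length, and the order below them differed. In the parent the order ran MMP7, TIMP1, TIMP2, TIMP3, MMP2, MMP1, MMP24, MMP14 and MMP15, where the neighbours MMP2 and MMP1, MMP1 and MMP24, and MMP24 and MMP14 did not differ beyond counting error. In subclone 1 TIMP1 and MMP7 stood first without a difference beyond counting error (ratio 1.07, 0.983 to 1.18), followed by TIMP2, TIMP3, MMP24, MMP14, MMP1, MMP2 and MMP15. In subclone 2 the order was MMP7, TIMP1, TIMP2, TIMP3, MMP24, MMP14, MMP1, MMP15 and MMP2, and all neighbours differed. MMP2 thus went from the first place after the TIMP genes in the parent to the last place in subclone 2.

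Ratios of levels between partners moved as well. MMP7 stood at 1.29 times TIMP1 in the parent (1.19 to 1.40), 0.930 times in subclone 1 (0.851 to 1.02) and 1.86 times in subclone 2 (1.72 to 2.01). TIMP2 exceeded MMP14 by 12.5 times in the parent (10.5 to 15.1), 9.21 times in subclone 1 (8.16 to 10.4) and 9.02 times in subclone 2 (7.95 to 10.3). MMP2 was 1.58 times MMP14 in the parent (1.26 to 1.98), but 0.212 times in subclone 1 (0.159 to 0.280) and 0.0490 times in subclone 2 (0.0257 to 0.0852). The transcript of the protease that is activated was therefore above that of its activator in the parent only. These are ratios of transcripts, and no protein or activity was measured in these data.

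The summed level of the MMP members was 331 RPKM in parent cells, 254 in subclone 1 and 465 in subclone 2, and that of the TIMP members was 386, 409 and 405. MMP7 made up 86.8%, 78.2% and 87.8% of the MMP sum, so the order of the sums is that of MMP7. Without MMP7 the MMP sum was 43.7 RPKM in parent cells, 55.4 in subclone 1 and 56.6 in subclone 2. The sum of MMP over the sum of TIMP was 0.858, 0.622 and 1.15. Within the TIMP sum, the share of TIMP2 was 26.2%, 40.2% and 35.2%, and the share of TIMP3 was 16.1%, 7.53% and 10.6%, in the same order of libraries.

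**Figure D4:**
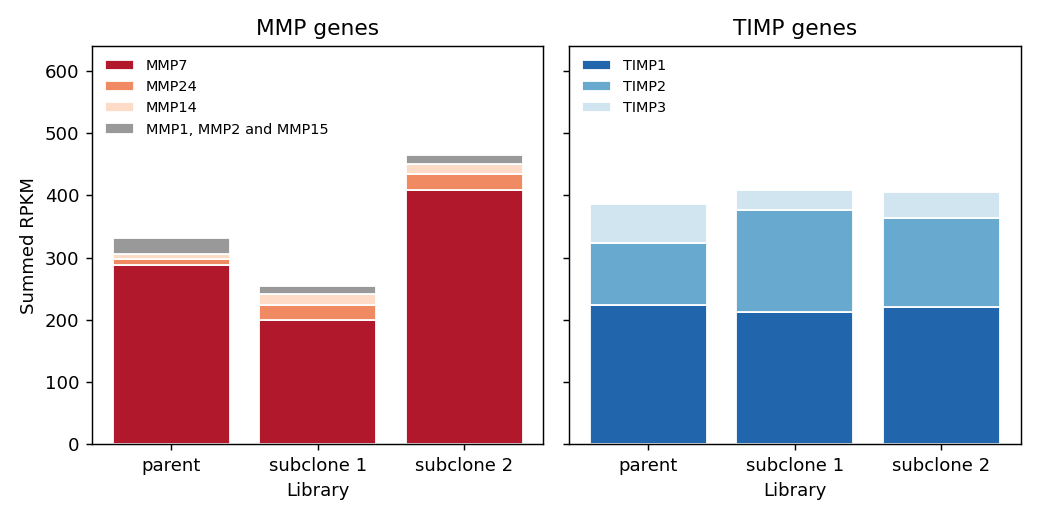
Summed RPKM of the MMP members (left) and of the TIMP members (right) in the 3 libraries, stacked by gene from 0. The MMP sum follows MMP7 (254 RPKM in subclone 1, 465 in subclone 2), while the TIMP sum stays between 386 and 409 RPKM with a larger share of TIMP2 and a smaller share of TIMP3 in the subclones.

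For the 4 members at least 2-fold from the parent in a subclone, the genes of most similar ratios were sought by the distance between the pairs of log2 ratios over the parent. MMP2 had few near it, with only 2 genes within a distance of 0.5. They were HTRA1, a secreted serine protease, at 3.33, 1.22 and 0.0990 RPKM in the parent, subclone 1 and subclone 2 (distance 0.414), and GXYLT2, a xylosyltransferase, at 4.61, 1.26 and 0.137 RPKM (distance 0.443). The next was SOX18, a transcription factor of vessel development, at 5.84, 2.02 and 0.123 RPKM. In subclone 2 the levels of HTRA1, GXYLT2 and SOX18 lay near the pseudocount of 0.1 RPKM. Their log2 ratios there, and so their distances to MMP2, depend on that setting and on very few reads. The other 3 members lay among many genes, 495 for MMP14, 264 for MMP24 and 640 for TIMP3 within the same distance. Nearest were IFI27L2, MAPT and BTN2A2 to MMP14, CLIC3, G0S2 and C2 to MMP24, and RNF122, FERMT1 and LHFP to TIMP3, each within 0.043 of the member.

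The other matrix metalloproteinases were nearly silent. Of 17 such genes 8 were listed in a library, and none had a mean RPKM of 1 or more. MMP10 had 2, 5 and 3 reads in the parent, subclone 1 and subclone 2, and MMP11 had 4, 9 and 4. MMP20, the enamel protease, was not listed in the parent and had 1.11 RPKM in subclone 1 and 0.216 in subclone 2. The stromelysin MMP3, the collagenases MMP8 and MMP13 and the macrophage elastase MMP12 were not listed in any library. Thus MMP7, MMP1, MMP2 and the 3 membrane-type genes were the MMP transcripts above a mean of 1 RPKM in these lines.

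No other inhibitor averaging at least 1 RPKM reached 2-fold. Of 7 genes 4 averaged at least 1 RPKM, and 0 of these were 2-fold higher or lower in any of the 3 comparisons. Over all genes the share per direction and comparison ranged from 1.39% to 5.33%. TIMP4 had 4.28, 3.51 and 4.44 RPKM in the parent, subclone 1 and subclone 2, and RECK, a membrane-anchored inhibitor, had 2.42, 3.63 and 3.30. TFPI2 had 4.81, 5.95 and 3.87 RPKM. THBS1, a matrix glycoprotein that binds MMP2, had 59.2, 36.0 and 40.0 RPKM, log2 ratios over the parent of -0.71 and -0.56.

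Among 14 activators, inducers and uptake receptors, 13 were listed and all of these averaged at least 1 RPKM. In subclone 1 over the parent 3 of these were at least 2-fold higher, against 4.90% of all genes, and 1 was lower, against 1.82%. In subclone 2 over the parent 2 were higher, against 5.33%, and 2 were lower, against 2.16%. LCN2, or lipocalin 2, which binds MMP9 and protects it from breakdown, had 37.4 RPKM in parent cells, 269 in subclone 1 and 543 in subclone 2, log2 ratios of 2.84 and 3.86. Its partner MMP9 was not listed in these libraries. PLAT, the tissue-type plasminogen activator, had 8.64, 2.53 and 3.13 RPKM, log2 ratios of -1.73 and -1.43, and its substrate gene PLG was not listed. ITGB3, the integrin chain that with ITGAV docks MMP2, had 0.819, 2.57 and 0.216 RPKM, higher in subclone 1 and lower in subclone 2. LRP1, the receptor that takes up MMP and TIMP complexes, had 16.2, 35.4 and 39.4 RPKM, log2 ratios of 1.12 and 1.28. FURIN, the convertase that cuts the MMP14 precursor, differed little, with 13.1, 13.4 and 13.8 RPKM.

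AP-1 and ETS factors are known as regulators of several MMP genes, although of the 4 MMP promoters searched here only that of MMP7 held either motif. The list held 11 genes averaging at least 1 RPKM, and 0 were 2-fold higher or lower in any comparison, against 1.39% to 5.33% of all genes. Their median log2 ratio was 0.19 in subclone 1 and 0.34 in subclone 2 over the parent. JUNB had 31.0, 57.1 and 48.3 RPKM in the parent, subclone 1 and subclone 2, and JUND had 26.2, 36.3 and 45.8. FOS had 7.74, 12.9 and 13.1 RPKM. The AP-1 genes did not all go this way. FOSL1 had 64.1, 39.8 and 40.7 RPKM, log2 ratios over the parent of -0.69 and -0.65, and JUN had 31.4, 31.2 and 28.3 RPKM. ETV4, an ETS factor of the PEA3 group, had 20.6, 11.2 and 17.6 RPKM, lowest in subclone 1. Whether these factors act on the promoters above was not tested.

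The related ADAM and ADAMTS proteases were 30 genes, of which 10 averaged at least 1 RPKM. In subclone 1 over the parent 1 of these was at least 2-fold higher, against 4.90% of all genes, and 0 were lower, against 1.82%. In subclone 2 over the parent 1 was higher, against 5.33%, and 1 was lower, against 2.16%. ADAM28 was the higher one, with 2.91 RPKM in parent cells, 8.89 in subclone 1 and 12.8 in subclone 2. ADAM12, a protease of muscle and stroma, was lower in subclone 2, with 2.85, 2.71 and 1.29 RPKM. ADAMTS12 had 3.73, 2.15 and 2.99 RPKM, and ADAMTS7 had 1.17, 0.666 and 1.22.

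Among 15 matrix substrates, 8 averaged at least 1 RPKM. In subclone 1 over the parent 1 of these was at least 2-fold higher, against 4.90% of all genes, and 0 were lower, against 1.82%. In subclone 2 over the parent 2 were higher, against 5.33%, and 1 was lower, against 2.16%. The higher ones were of the basement membrane. LAMB1, a laminin chain, had 34.4, 86.9 and 78.6 RPKM, log2 ratios of 1.33 and 1.19, and HSPG2, or perlecan, had 5.44, 10.5 and 13.0 RPKM, log2 ratios of 0.94 and 1.25. COL4A5, a type IV collagen chain, had 2.25, 4.54 and 3.12 RPKM. The lower one was COL3A1, whose values stand beside MMP2 above.

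The labelled cell type was checked against hepatocyte markers, of which 10 of 11 were listed. Their summed level was 2590, 2814 and 2890 RPKM in the parent, subclone 1 and subclone 2, held mostly by the epithelial keratins KRT8 and KRT18. HNF4A, a hepatocyte transcription factor, had 11.7, 11.9 and 16.0 RPKM. ALB was low in the parent at 2.46 RPKM, and stood at 49.5 RPKM in subclone 1 and 68.8 RPKM in subclone 2. TTR was at 0 in the parent and subclone 1, SERPINA1 was at most 0.246 RPKM, and the HCC marker GPC3 was not listed. The endothelial list summed to 5.11, 11.9 and 7.60 RPKM and was carried by PECAM1 and KDR. PECAM1 had 3.33, 9.81 and 4.46 RPKM (102, 309 and 144 reads), highest in subclone 1 with a fold over the parent of 2.35 to 3.73 by its counting interval. KDR had 1.36, 1.93 and 3.08 RPKM (37, 54 and 88 reads), highest in subclone 2 with a fold over the parent of 1.52 to 3.41. TEK went the other way, with 0.370, 0.0901 and 0.0439 RPKM (8, 2 and 1 reads). Its fold over the parent in subclone 2 was 0.00268 to 0.886 by its counting interval. CDH5 was at 0 in the parent and subclone 2 and had 1 read in subclone 1, and VWF had at most 2 reads. The part of these genes in the values of the MMP and TIMP genes was not tested. The leukocyte list summed to 76.2, 114 and 101 RPKM, nearly all from the lysosomal gene CD68, with PTPRC at 0 in both subclones.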

How the data were processed

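The authors deposited RPKM values per gene for 1 library of each line, made with a TruSeq RNA kit from total RNA. The submitters' processing notes name the build hg19. The aligner, the counting tool and the annotation are not given in the sources used here. Genes without reads have no row and were set to 0. RPKM values of a gene were whole multiples of what 1 read is worth, which gave the library totals and, for 10903 of the 11370 genes averaging 1 RPKM or more (95.9%), whole reads to within 0.002 reads. Gene length was the smallest that gave whole reads, or a multiple of it that matched a GENCODE transcript within 1%. Log2 ratios were taken on log2(RPKM + 0.1), which understates differences of low genes, and folds with exact Clopper-Pearson 95% intervals on the reads without a pseudocount. Levels have exact Poisson intervals. Reads without molecular identifiers are not independent molecules, so the intervals and the limit of 3 reads cover counting error only, and they compare libraries, not conditions. Groups came from the sample titles. Every member is named. Of each related list up to 4 genes averaging 1 RPKM or more and with the largest absolute log2 ratio over the parent are named, and for each member at least 2-fold from the parent the 3 nearest genes. Other genes named (COL3A1 beside MMP2, FURIN, PLG, FOSL1, JUN, the other metalloproteinases and the marker genes) were chosen after their values were seen. The members and lists were chosen with earlier results of these data known. Alternatives were pseudocounts of 0.01 and 1, 5 other scalings, a mean RPKM of 5 or more or none, and 1.5-fold. Gene places and primer matches come from GENCODE on GRCh38, promoters from RefSeq on GRCh38.p14, and no coordinates were converted from hg19. Read recovery was tested on simulated data. Python 3.11.15, numpy 2.4.6, pandas 2.3.3, scipy 1.17.1 and matplotlib 3.10.9 were used.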

Additional observations from a re-analysis of the deposited data

Results flagged for a closer look

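MMP7 was the gene of this set whose level lay on opposite sides of the parent in the 2 subclones with both counting intervals clear of equality. Relative to the parent its log2 ratio came to -0.53 for subclone 1 and 0.50 for subclone 2. With 1 library per line the difference between the subclones was not tested against the spread between cultures.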

How the results depend on the processing

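No paired analysis was possible because each line had 1 library and no replicate number was shared by more than these single libraries. For the same reason no library could be left out. The 2-fold counts turned on genes near the limit. The count of members lower in subclone 1 than in the parent went from 2 to 1 with a pseudocount of 1 RPKM and to 1 with division by the upper quartile, since TIMP3 crossed the limit. The count of members higher in subclone 2 than in the parent went from 1 to 2 with division by GAPDH and to 2 at 1.5-fold, where MMP14 joined MMP24, and the count higher in subclone 2 than in subclone 1 went to 2 at 1.5-fold. The median of the members in subclone 1 over the parent went from -0.06 to -0.30 at a mean RPKM of at least 5, where MMP15 left the set. Of 189 log2 ratios of single members under the alternatives, 181 stayed within the counting interval and 8 moved, and no ratio whose interval excluded 1 changed sign. They were MMP2 in subclone 2 over the parent at -2.95 with a pseudocount of 1, and 7 ratios of MMP7, TIMP2 and TIMP3 with division by ACTB or GAPDH, among them -1.15 for TIMP3 in subclone 1 over the parent. Over all genes, division by ACTB shifted the median log2 ratio of subclone 1 over the parent to -0.13, and the share of higher genes among those past 2-fold from 72.9% to 57.8%. For subclone 2 over subclone 1 that share went from 50.5% to 64.0% with ACTB and 62.6% with GAPDH. The counts of genes past 2-fold over all genes depended on the filter, from 557 higher and 207 lower in subclone 1 over the parent to 1523 and 884 without it and 233 and 71 at a mean RPKM of at least 5. With a pseudocount of 1 they were 347 and 117. Subclone 2 over the parent went from 606 and 246 to 1553 and 941, 253 and 93, and 380 and 150 under the same settings, and subclone 2 over subclone 1 from 161 and 158 to 842 and 902, 43 and 46, and 80 and 77. MMP2 in subclone 2 rests on 13 reads, and the spread between cultures was not measured for any gene.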
